A study of Mus musculus with 20 samples.

Results

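Opposite-strand lncRNAs are long noncoding RNAs named after the gene on the other DNA strand beside which, or across which, they are transcribed. The 32 studied here were lncRNA rows of the deposited gene tables whose gene name ends in os, or in os and a single digit, and whose name without that ending is also in the tables. They were selected on a mean level of at least 1 TPM over the 15 bulk libraries (an abundance corrected for transcript length and scaled to sum to 1000000 per library). Foxd2os and the lncRNAs of the Hox clusters were left out. The 32 gene IDs carry 31 names, because Tmem147os stands under 2 IDs, and they have 31 partner genes. They are 32 of 54446 gene IDs in all and of 587 annotated lncRNAs at or above the same level. Of 298 IDs with such a name, 284 are annotated as lncRNA, and 279 of these remained without Foxd2os and the Hox lncRNAs. In that set 247 lay under 1 TPM, 141 of them listed at 0 in every library. The members just inside the threshold were Gad1os at 1.05 and Fbxl12os at 1.06 TPM, and those just outside were Rbm3os at 0.986 and N4bp2os at 0.855 TPM. The level chose the members, so it is given below only as a description. With its own highest group left out, 5 of the 32 would lie under 1 TPM (Notumos at 0.947, Phf2os1 at 0.961, Ccdc142os at 0.935, Fbxl12os at 0.979 and Gad1os at 0.840 TPM). Notumos passed through the groups with further CHIR99021 and Gad1os through the group 96h, so their differences from those groups are given as values with no test. Counts of called lncRNAs are given also for the other 27. Counts of called ratios still include the 5, and those of the 5 that were called are named with them.

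The libraries came from aggregates of F1G4 mouse embryonic stem cells that carry the T::H2B-mCherry and Sox2::H2B-Venus reporters, and all received 3 µM CHIR99021, a GSK3 inhibitor that switches on WNT signalling, after 48 h of aggregation. Each of 5 groups had 3 libraries, which the labels call biological replicates. The group 96h was collected at 96 h from 10 pooled structures per library, before any gel was added, and the other groups at 120 h from 6 pooled structures per library. Gastruloid stayed without Matrigel, TLSMG grew in Matrigel as trunk-like structures, TLSMGC received Matrigel and further CHIR99021, and TLSMGCL received Matrigel, CHIR99021 and the BMP receptor inhibitor LDN. Structures with an asymmetric pole were picked, so the libraries do not describe every aggregate of a plate, and all of them come from a single cell line. The series also lists 5 single-cell samples, which were not analysed here. Read counts were not used, and the tables' own coverage per unit of FPKM, which is proportional to aligned bases, ran from 3.12 to 6.84 over the libraries. Pairs of libraries of the same group correlated at 0.985 to 0.991 (Pearson, over log2 levels of the tested genes), and no 2 were identical. Among marker lists, the presomitic and tailbud list (10 genes) summed to between 1407 and 1890 TPM at 96h, between 115 and 191 TPM in Gastruloid, between 164 and 209 TPM in TLSMG, between 363 and 469 TPM with CHIR99021 and between 374 and 427 TPM with CHIR99021 and LDN, and all 10 genes reached 1 TPM in every group except Gastruloid, where 9 did.

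Mammalian promoters often fire in both directions, so that a lncRNA starts on the opposite strand close to the start of a coding gene. Others begin inside the partner's body or at its far end and run across its exons as antisense RNA. Some lncRNAs of this kind act on the neighbouring gene or its RNA, while for others the act of transcription or the shared open promoter is all that links the 2 genes.

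All 32 lncRNAs lie on the strand opposite to their partner (GENCODE M21 on mouse genome build GRCm38), and all 31 partners code for protein. In 10 pairs the genes point away from each other without overlap, with 5′ ends 39 to 5199 bases apart and a median of 144.5. In 15 pairs the lncRNA starts inside the partner, 3 lncRNAs lie wholly within it, 2 enter it from its 3′ end (Rab10os and Ccdc142os), and 2 lie beyond its 3′ end (Epb41l4aos and Fbxl12os). Within 17 pairs the 5′ ends are at most 1000 bases apart. Exon bases are shared with the partner's exons, on the other strand, by 18 lncRNAs, with 36.2% of exon bases shared in Zbtb11os1 as the highest value. The labels describe a kit that marks the strand, but whether the counting used the strand is not given in the sources used here. For those 18 pairs, reads of the lncRNA and of its partner therefore cannot be told apart with certainty, and their values are uncertain to that degree. The same holds for exon bases shared with other opposite-strand genes of at least 1 TPM. These genes are Ints2 and Med13 for Brip1os, Ndufs1 for Ino80dos, Gm49394 for Igf2os, and Mrpl53 and Gm42688 for Ccdc142os.

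RefSeq windows running from 250 bases before to 50 bases after the annotated start (GRCm38.p6) were present for 20 of the 31 lncRNA names and 24 of the 31 partners. They were rich in C and G. The median GC content was 67.3% over 23 lncRNA windows and 63.2% over 34 partner windows, against 52.7% over all 32851 windows of the table. The median number of CpG dinucleotides was 30.0, 21.5 and 7.0 in the same order. In 9 pairs the windows of lncRNA and partner share bases, from 145 in Appbp2os and Appbp2 to 286 in Map2k3os and Map2k3. RefSeq starts can differ from the GENCODE starts used above, as for Appbp2os. The motifs searched were 4, read on both strands, and no letters of 1 motif contain another. The TCF/LEF core (CTTTG followed by AA, AT, TA or TT), the site read by the factors at the end of the WNT pathway, was in 0 of 23 lncRNA windows and in 3 of 34 partner windows (those of Gad1, Kcnmb4 and Tmem147), and 16.9% of all windows hold it. TATAAA was in 1 lncRNA window (Rab26os) and 1 partner window (Gad1), against 13.6% of all. CCAAT was in 10 and 10, against 37.4%, and GGGCGG in 15 and 22, against 35.7%. The windows differ from the full table in GC content, and its part in the motif shares was not tested. Some windows overlap, so they are not independent. A match is a description of letters in these windows and not a binding site.

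The windows of 4 genes are shown for 2 arrangements of starts. Evx1 and Evx1os start separately, while Lhx1os and Lhx1, or Map2k3os and Map2k3, start from a single region in opposite directions. The ratio test over the 5 groups below called the last 2 pairs and not the first. Whether arrangement goes with behaviour was not tested, and other pairs differ. Brip1os, 177 bases from Brip1, moved with it. Has2os starts 4595 bases inside Has2, and the ratio of that pair was called. The windows of Lhx1os and Lhx1 share 225 bases. Capitals mark CCAAT or its reverse complement ATTGG, and no TCF/LEF core and no TATAAA was found in these 4 windows. The window of Evx1 is chr6:52313248-52313547 on the plus strand and that of Evx1os chr6:52314783-52315082 on the minus strand. The window of Lhx1os is chr11:84525410-84525709 on the plus strand and that of Map2k3os chr11:60931818-60932117 on the minus strand.
Evx1: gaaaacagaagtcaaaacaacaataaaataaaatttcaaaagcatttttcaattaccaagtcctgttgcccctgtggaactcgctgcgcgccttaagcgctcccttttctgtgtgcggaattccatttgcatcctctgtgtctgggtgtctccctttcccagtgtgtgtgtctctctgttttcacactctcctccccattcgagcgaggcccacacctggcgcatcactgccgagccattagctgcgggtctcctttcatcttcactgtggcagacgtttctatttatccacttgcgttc
Evx1os: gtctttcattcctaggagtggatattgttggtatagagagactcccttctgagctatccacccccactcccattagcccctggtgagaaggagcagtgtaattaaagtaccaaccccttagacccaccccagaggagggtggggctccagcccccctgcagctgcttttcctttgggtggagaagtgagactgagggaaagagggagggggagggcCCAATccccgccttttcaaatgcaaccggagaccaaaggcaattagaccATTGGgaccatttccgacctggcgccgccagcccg
Lhx1os: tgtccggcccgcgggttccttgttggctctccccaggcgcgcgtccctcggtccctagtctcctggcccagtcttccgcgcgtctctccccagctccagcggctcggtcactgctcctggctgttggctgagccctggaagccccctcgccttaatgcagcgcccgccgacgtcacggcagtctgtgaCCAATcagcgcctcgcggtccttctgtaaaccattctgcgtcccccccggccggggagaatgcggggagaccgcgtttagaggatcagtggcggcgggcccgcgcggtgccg
Map2k3os: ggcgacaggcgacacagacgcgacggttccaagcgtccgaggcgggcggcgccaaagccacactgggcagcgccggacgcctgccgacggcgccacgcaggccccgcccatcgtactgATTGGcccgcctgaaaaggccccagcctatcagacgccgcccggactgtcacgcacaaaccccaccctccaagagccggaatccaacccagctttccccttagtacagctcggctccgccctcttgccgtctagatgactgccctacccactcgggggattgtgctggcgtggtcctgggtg

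The lncRNA was the lower of the pair in 26 of 32 pairs, with a median over members of 1.97 TPM against 17.4 TPM for the partners. Epb41l4aos led the lncRNAs with a mean of 61.2 TPM, followed by Brip1os with 30.1, Rab26os with 20.4, Igf2os with 17.1, Sp3os with 13.9 and Rab10os with 13.0 TPM. The 6 lncRNAs above their partner were Epb41l4aos, Brip1os, Rab26os, Erich2os, Ccdc142os and Gad1os. The partners of the last 4 of these (Rab26, Erich2, Ccdc142 and Gad1) had means of 0.540, 0.608, 0.647 and 0.232 TPM and were under the 1 TPM needed for a test.

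**Figure D1:**
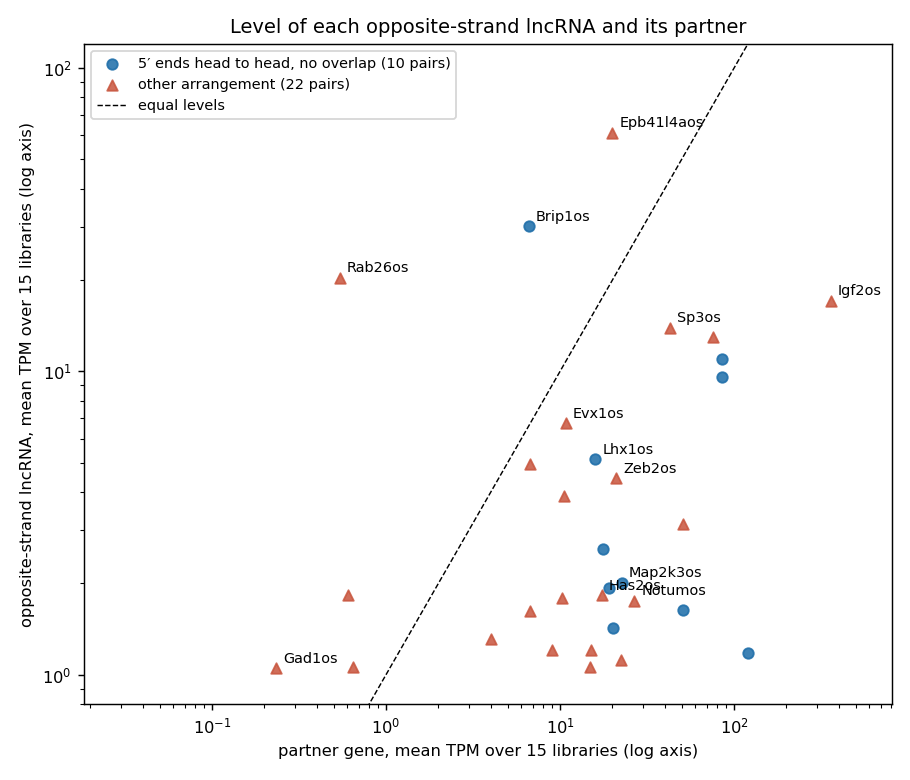
Mean TPM of each of the 32 opposite-strand lncRNAs (vertical, log axis) against that of its partner (horizontal, log axis) over 15 libraries; circles are pairs pointing away from each other without overlap and triangles all others. The dashed line marks equal levels, and 26 of 32 points lie below it.

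Each gene was tested with limma on log2(TPM + 1) over 14290 genes, and the difference within a pair with the same model on log2((lncRNA + 1)/(partner + 1)) over 2606 opposite-strand pairs. An adjusted p (Benjamini-Hochberg) under 0.05 was a call. This scale understates changes of genes under a few TPM, and it lowers the ratio of a scarce lncRNA whenever its partner rises. The ratios were therefore also fitted with a pseudocount of 0.1, where 20 of the 36 calls held and 16 did not. A call for 1 gene of a pair and none for the other does not show that they differ. Only the test of the ratio addresses that. Not every called ratio is named below. Those named are given with that outcome and mostly with the lncRNA as a percentage of its partner in plain TPM. Across the 5 groups, 22 of 32 lncRNAs (19 of the 27 that did not pass through 1 group) and 23 of 27 testable partners differed between groups, where 73.5% of all genes did. The ratio differed in 18 of 32 pairs, where 58.4% of all pairs did. The 18 include Notumos and Fbxl12os, which passed through 1 group. None of the 6 comparisons called 7 of the lncRNAs, and neither did the test over the 5 groups: Rab10os, Erich2os, Has2os, Ino80dos, Stamos, Atad3aos and Ccdc142os. In bulk libraries, fewer cells of a type and less RNA per cell cannot be told apart.

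From 96h to Gastruloid, 5 lncRNAs rose and 7 fell of 32 (5 and 5 of the 27), and 0 partners rose and 8 fell of 27, beside 41.2% of all genes called. Both genes of the pair fell together in 5 of 28 pairs with both genes tested (17.9%, against 9.26% of 2602 opposite-strand pairs in which both moved 1 way), those of Evx1os, Lhx1os, Appbp2os, Notumos and Foxl2os. Without 96h replicate 2 or without Gastruloid replicate 1 the count was 3 of 28 (10.7%, against 6.65% and 6.69% of all pairs), because Appbp2os and Foxl2os were no longer called. The Appbp2os call was lost without any 1 of 8 libraries (adjusted p 0.0504 to 0.19) and under 4 other settings, and the Foxl2os call without any 1 of 3 libraries (adjusted p 0.0537 to 0.0707). The ratio was called in 8 of 32 pairs, Notumos among them, higher in each, beside 35.0% of all pairs. The median difference was 0.03 over the lncRNAs, -0.12 over the partners and 0.00441 over all genes (log2). The lncRNAs that rose were Sp3os, both IDs of Tmem147os, Zfp335os and Kcnmb4os2, and the partners of none of them were called. Of these, the Kcnmb4os2 call was lost without any 1 of 3 libraries (adjusted p 0.0871 to 0.175). The count of called lncRNAs was 7 without 96h replicate 2.

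From 96h to TLSMG, 8 lncRNAs rose and 7 fell (7 and 6 of the 27), and 10 partners rose and 5 fell, beside 46.0% of all genes called. The ratio was called in 6 pairs, Notumos among them, beside 33.2% of all pairs. The count of lncRNAs was 9 without 96h replicate 1. The medians were 0.13, 0.24 and 0.14 in the same order. Appbp2os and Appbp2 were the 1 pair of 28 called in opposite directions in any comparison (3.57%, against 4.77% of all pairs in this comparison). TLSMG against Gastruloid, the comparison of structures with and without Matrigel at 120 h, gave 4 lncRNAs higher and 2 lower, all among the 27, beside 39.3% of all genes called. Of 27 partners 15 were higher and 0 lower. The medians were 0.07 over the lncRNAs, 0.50 over the partners and 0.13 over all genes. The ratio was lower in 7 pairs and higher in 0, beside 21.4% of all pairs, and 3 of the 28 pairs rose together (10.7%, the same share as over all pairs). Of the 587 annotated lncRNAs, 22.3% were called in this comparison, and of the 32 members 18.8%. The ratio count was 3 without Gastruloid replicate 2 or without TLSMG replicate 3, and 4 without Gastruloid replicate 1 or TLSMG replicate 2.

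Further CHIR99021 in Matrigel (TLSMGC against TLSMG) gave 6 lncRNAs higher and 4 lower (5 and 3 of the 27), beside 40.9% of all genes called, and 5 partners higher and 12 lower. The medians were -0.11, -0.24 and -0.16 in the same order. In 7 of 28 pairs both moved the same way (25.0%, against 9.45% of all pairs): Epb41l4aos, Evx1os, Lhx1os and Notumos rose with their partners, and Brip1os, Etaa1os and Phf2os1 fell with theirs. Among the 25 pairs whose lncRNA did not pass through 1 group the count was 5 (20.0%), without Notumos and Phf2os1. Over all 28 it was 5 (17.9%) with median-of-ratios scaling, against 7.99% of all pairs, and also without TLSMG replicate 1, TLSMG replicate 3 or TLSMGC replicate 3. The ratio was called in 7 pairs, beside 21.2% of all pairs, and in 4 without any 1 of TLSMG replicates 1 and 3 and TLSMGC replicates 1 and 3. The 7 include Notumos, which was selected through the groups with further CHIR99021. TLSMGCL against TLSMG gave 5 lncRNAs higher and 4 lower (4 and 3 of the 27) and 3 partners higher and 14 lower, beside 44.9% of all genes, with medians of -0.01, -0.33 and -0.18. The ratio was called in 8 pairs, again with Notumos among them, beside 23.8% of all pairs. It was called in 5 without TLSMG replicate 3 or TLSMGCL replicate 2. Adding LDN to CHIR99021 (TLSMGCL against TLSMGC) called 1 lncRNA, Evx1os, and 1 partner, Lhx1, both lower, beside 1.18% of all genes, and 0 ratios, beside 0.0767% of all pairs, and the medians were -0.04, -0.13 and -0.04. These 3 comparisons share the TLSMG, TLSMGC or TLSMGCL libraries.

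The direction of small changes rested on the scaling. Dividing the libraries by median-of-ratios factors moved the median of all genes from 0.14 to -0.01 in TLSMG against 96h, from 0.13 to -0.02 in TLSMG against Gastruloid, from -0.16 to -0.01 in TLSMGC against TLSMG and from -0.18 to -0.00191 in TLSMGCL against TLSMG (log2). The lncRNA calls were then 4 higher and 11 lower, 1 higher and 5 lower, 7 higher and 2 lower, and 6 higher and 2 lower in that order. The partner calls were 5 higher and 7 lower, 14 higher and 1 lower, 6 higher and 6 lower, and 6 higher and 11 lower. For Gastruloid against 96h, the lncRNAs stayed at 5 higher and 7 lower, and the partners were 1 higher and 9 lower.

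**Figure D2:**
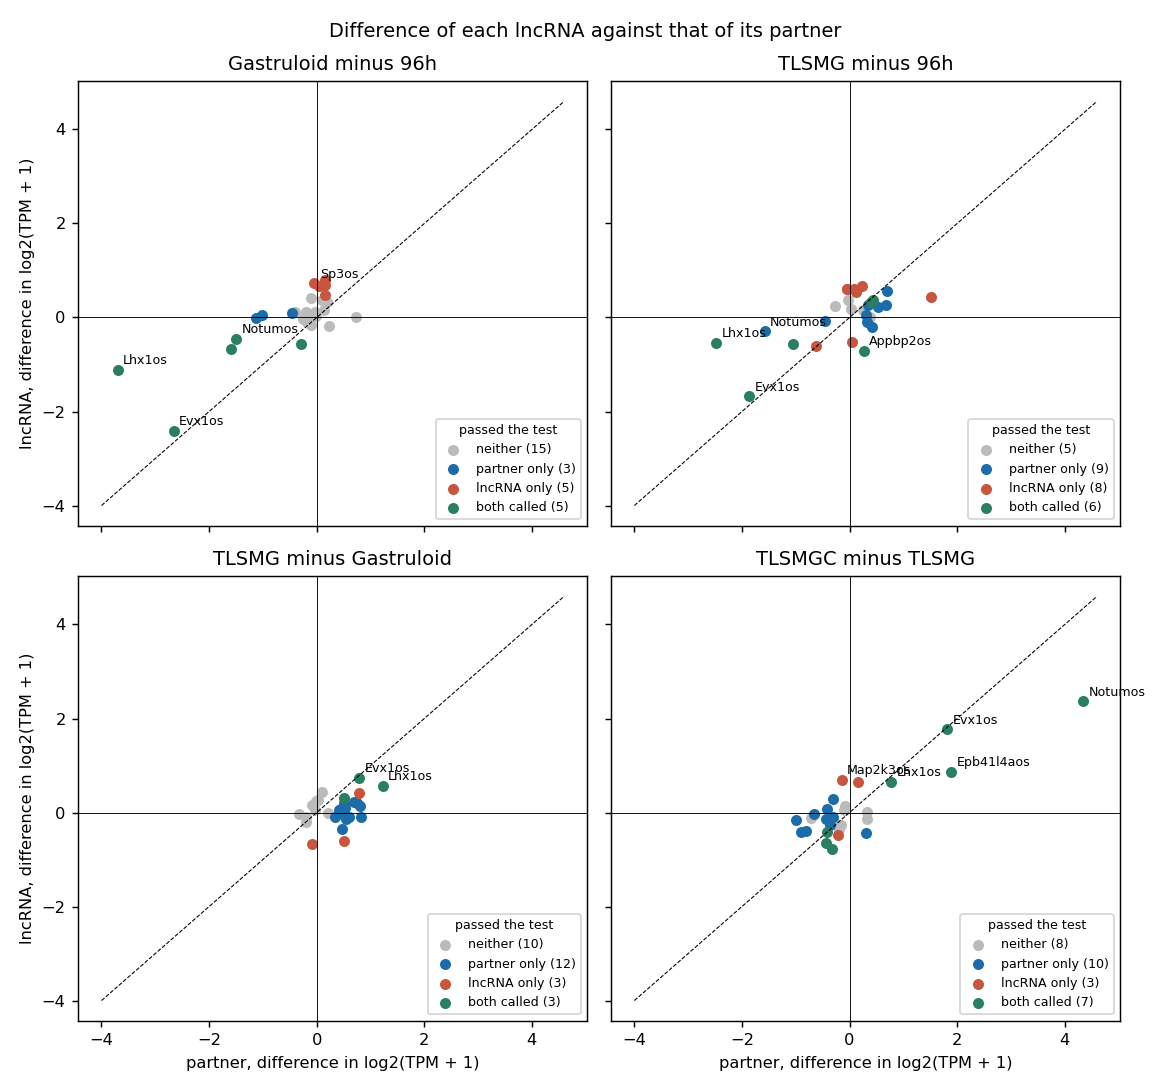
Difference in log2(TPM + 1) of each lncRNA (vertical) against that of its partner (horizontal) in 4 comparisons, for the 28 pairs with both genes tested; colours give which of the pair passed the test, the dashed line equal differences. Evx1os lies near the line, Lhx1os far from it at 96h, and Notumos moved with Notum to the upper right in TLSMGC against TLSMG.

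Among pairs of transcription factors, Evx1os and Evx1 followed a similar course. Evx1 is a homeobox factor of the posterior embryo, and Evx1os (chr6:52308389-52314832) starts 1334 bases inside its body on the other strand, with 73 exon bases shared. Evx1os stood at 9.34, 11.98 and 12.7 TPM at 96h, 0.593, 1.43 and 2.17 in Gastruloid, 3.41, 2.63 and 2.55 in TLSMG, 10.9, 12.4 and 12.97 in TLSMGC and 5.36, 6.65 and 5.98 in TLSMGCL. Evx1 itself was at 15.4, 19.6 and 21.9 TPM at 96h, 1.38, 2.35 and 2.87 in Gastruloid, 5.51, 3.65 and 4.296 in TLSMG, 17.4, 17.1 and 19.8 in TLSMGC and 9.45, 12.8 and 8.199 in TLSMGCL. Both were high at 96h and in TLSMGC, lowest in Gastruloid and intermediate in TLSMGCL, and the Gastruloid libraries overlapped with no library of another group for either gene. From 96h to Gastruloid, Evx1os fell by 2.41 ± 0.20 (log2 difference, SE, adjusted p = 5.8e-07) and Evx1 by 2.66 ± 0.20 (adjusted p = 1.89e-07). TLSMGC exceeded TLSMG by 1.77 ± 0.20 (adjusted p = 1.49e-05) in the lncRNA and 1.81 ± 0.20 (adjusted p = 1.05e-05) in the partner. In plain TPM the lncRNA was 59.9% ± 1.72 (SD, n = 3) of Evx1 at 96h, 59.8% ± 16.2 (SD, n = 3) in Gastruloid, 64.5% ± 6.75 (SD, n = 3) in TLSMG, 67.03% ± 5.14 (SD, n = 3) in TLSMGC and 60.5% ± 11.03 (SD, n = 3) in TLSMGCL. The test of the ratio over the 5 groups gave an adjusted p of 0.453, with group means within 0.25 of each other. A p that misses the threshold does not show that the 2 genes act alike. The fall from TLSMGC to TLSMGCL, -0.91 ± 0.20 for Evx1os (adjusted p = 0.0475), lost its call without any 1 of 12 libraries (adjusted p 0.0573 to 0.16), and Evx1 was not called there. The rise of Evx1os from Gastruloid to TLSMG, 0.74 ± 0.20 (adjusted p = 0.0109), was lost in a fit of these 2 groups alone (adjusted p = 0.0501). The presomitic and tailbud marker list was also high at 96h, and higher with CHIR99021 than in Gastruloid or TLSMG, but its course differed from that of the pair. It fell from 1407 to 1890 TPM at 96h to 363 to 469 TPM in TLSMGC, where the pair overlapped with 96h. In TLSMGCL, where both genes of the pair lay lower than in TLSMGC, it was at 374 to 427 TPM. Its part in the result was not tested.

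Lhx1os and Lhx1 moved in the same direction wherever both were called, but Lhx1 fell far more from 96h. Lhx1 is a LIM homeobox factor of early mesoderm, the head organizer and the kidney field, and Lhx1os (chr11:84525660-84535831) starts 125 bases from it in the other direction, with no shared exon bases. Lhx1 stood at 52.2, 46.5 and 46.8 TPM at 96h, 2.49, 2.97 and 2.96 in Gastruloid, 8.35, 7.92 and 7.41 in TLSMG, 15.6, 15.7 and 11.7 in TLSMGC and 7.05, 5.16 and 6.82 in TLSMGCL. For the lncRNA the libraries read 7.65, 6.26 and 6.44 TPM at 96h, 1.74, 3.08 and 3.17 in Gastruloid, 4.22, 4.37 and 4.44 in TLSMG, 7.55, 6.74 and 8.01 in TLSMGC and 3.45, 4.13 and 5.60 in TLSMGCL. At 96h Lhx1 lay far above every 120 h library, while Lhx1os at 96h overlapped the TLSMGC libraries. Lhx1 fell by 3.70 ± 0.13 from 96h to Gastruloid (adjusted p = 9.65e-11) and Lhx1os by 1.11 ± 0.17 (adjusted p = 0.000144). The lncRNA was 13.97% ± 0.608 (SD, n = 3) of its partner at 96h, 93.6% ± 20.6 (SD, n = 3) in Gastruloid, 55.2% ± 4.67 (SD, n = 3) in TLSMG, 53.3% ± 13.3 (SD, n = 3) in TLSMGC and 70.4% ± 18.5 (SD, n = 3) in TLSMGCL. The ratio rose from 96h by 2.59 ± 0.20 (adjusted p = 5.53e-07) to Gastruloid and by 1.94 ± 0.20 (adjusted p = 7.53e-06) to TLSMG, and with a pseudocount of 0.1 by 2.71 and 1.98 (adjusted p = 3.08e-06 and 5.25e-05). With CHIR99021 the pair rose together, by 0.66 ± 0.17 (adjusted p = 0.00688) for Lhx1os and 0.77 ± 0.13 (adjusted p = 0.000294) for Lhx1. In TLSMGCL, Lhx1 fell by 1.06 ± 0.13 from TLSMGC (adjusted p = 0.00101), a call lost in a fit of these 2 groups alone (adjusted p = 0.0691), and the lncRNA was not called. The Lhx1os call for TLSMG against 96h did not pass when 96h replicate 1 was left out (adjusted p = 0.0685). The call for TLSMG against Gastruloid did not pass without Gastruloid replicate 1 (adjusted p = 0.0752) or with median-of-ratios scaling (0.44, adjusted p = 0.053). An intermediate mesoderm list of 6 genes, which includes Lhx1, summed to between 58.8 and 72.4 TPM at 96h and between 9.97 and 10.6 TPM in Gastruloid. It lay between 26.9 and 37.2 TPM in TLSMG, 18.9 and 28.4 TPM in TLSMGC, and 5.52 and 7.61 TPM in TLSMGCL. Of these 6 genes, 4, 5, 6, 4 and 1 reached 1 TPM in that order, Pax8 and Wt1 were under 0.1 TPM at 96h, and the list's part in the result was not tested. Lhx1 itself, at 46.5 to 52.2 TPM at 96h and 5.16 to 7.05 TPM in TLSMGCL, made up most of the sum in these groups. The high sum at 96h is therefore not independent of the pair. In TLSMG, with Lhx1 at 7.41 to 8.35 TPM, most of the sum came from the other listed genes.

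Foxl2os and Foxl2 start 11 bases apart and share 12 exon bases. Foxl2 is a forkhead factor known from ovary and eyelid development. It fell by 1.59 ± 0.15 from 96h to Gastruloid (adjusted p = 2.67e-06), from 6.04 to 10.1 TPM down to 1.53 to 2.06 TPM. Foxl2os was at 0.998 to 2.10 TPM at 96h, 0.391 to 1.07 TPM in Gastruloid and 0.554 to 0.848 TPM in TLSMG. It was at 1.33 to 1.99 TPM in TLSMGC and 1.33 to 2.11 TPM in TLSMGCL. Its CHIR99021 libraries at 120 h lay above all of Gastruloid and TLSMG. TLSMGC exceeded TLSMG by 0.66 ± 0.20 (adjusted p = 0.0158), where Foxl2 was not called. That call was lost without TLSMG replicate 2 (adjusted p = 0.0616), TLSMGC replicate 1 (0.051) or TLSMGC replicate 3 (0.0573). Zeb2, a zinc finger repressor of the epithelial programme, carries Zeb2os (chr2:45110707-45114087) inside its body, with 32.8% of the lncRNA's exon bases shared. Zeb2os read 6.49, 6.04 and 5.69 TPM at 96h, 6.72, 6.602 and 4.997 in Gastruloid, 3.34, 3.101 and 4.58 in TLSMG, 1.896, 2.11 and 3.95 in TLSMGC and 3.17, 4.32 and 3.62 in TLSMGCL. Zeb2 read 22.5, 50.6 and 41.6 TPM at 96h, 16.6, 14.3 and 17.6 in Gastruloid, 17.8, 28.4 and 24.7 in TLSMG, 15.5, 11.98 and 11.5 in TLSMGC and 15.3, 8.57 and 17.9 in TLSMGCL. The lncRNA was high at 96h and in Gastruloid, while the partner was already lower in Gastruloid, where it lay below every 96h library. Zeb2 fell by 1.12 ± 0.29 from 96h to Gastruloid (adjusted p = 0.0065) and Zeb2os was not called. From Gastruloid to TLSMG, Zeb2os fell by 0.61 ± 0.19 (adjusted p = 0.022), which was lost without any 1 of 4 libraries, Gastruloid replicates 1 and 2 and TLSMG replicates 1 and 2 (adjusted p 0.0636 to 0.0813). The difference between the 2 genes, 1.12 ± 0.39 (adjusted p = 0.0408) for the ratio from 96h to Gastruloid, had an adjusted p of 0.0645 with a pseudocount of 0.1. It was also lost without any 1 of 5 libraries (adjusted p 0.0504 to 0.149). In plain TPM, Zeb2os was 18.2% ± 9.299 (SD, n = 3) of Zeb2 at 96h and 38.4% ± 9.08 (SD, n = 3) in Gastruloid, with ranges that overlapped. Zeb2os also shares exon bases on its own strand with 3 other annotated genes, the longest stretch being 131 bases with Gm27761 (mean 4.46 TPM), so reads could be split between them.

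**Figure D3:**
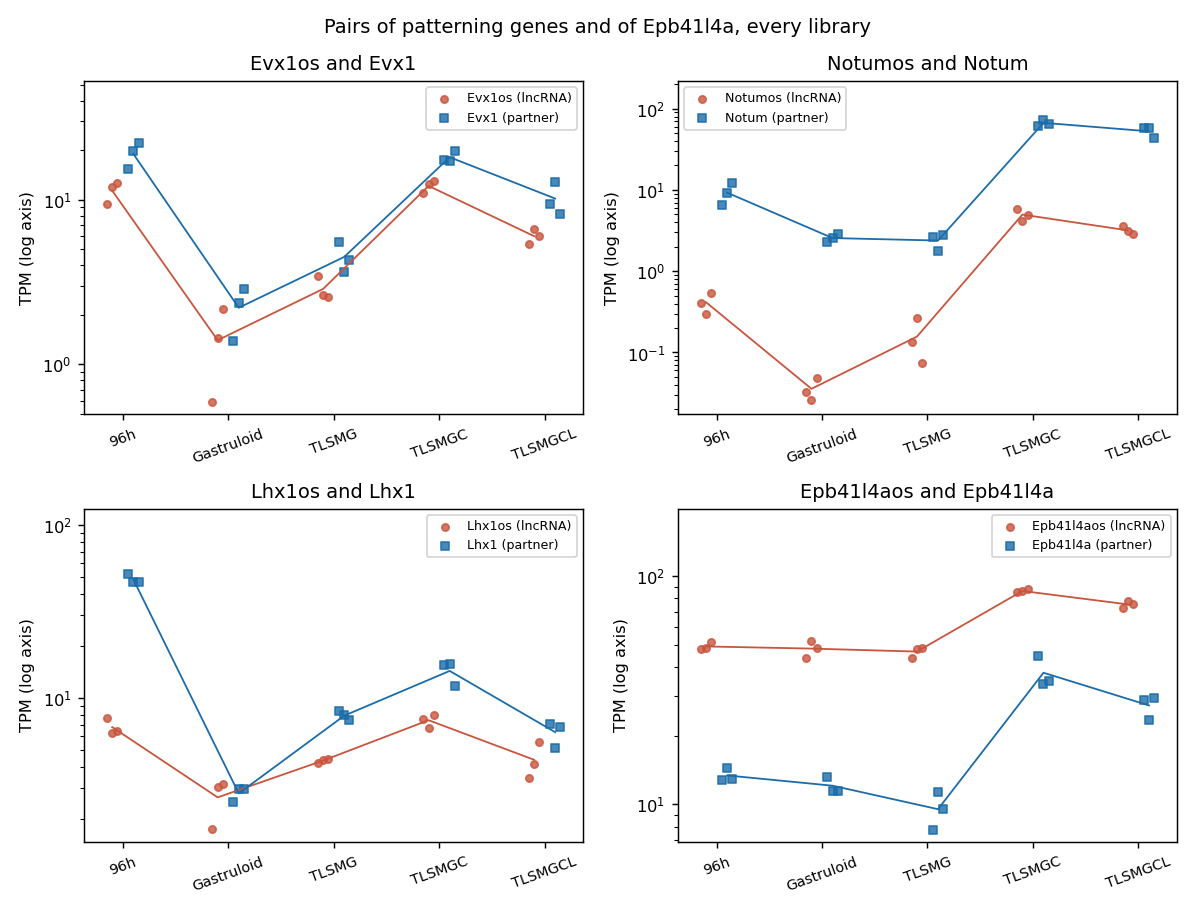
TPM (log axis) of 4 lncRNAs (circles) and their partners (squares) in each of the 15 libraries by group; lines join group means. Evx1os and Evx1 run in parallel, Lhx1 alone is far higher at 96h, and both genes of the Notum and Epb41l4a pairs are highest in TLSMGC.

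Notum rose more with further CHIR99021 than any other partner, and its lncRNA was high in the same libraries. Notum is a secreted enzyme that strips the lipid from WNT proteins and is a known feedback target of the pathway, and Notumos (chr11:120659157-120661815) starts inside it 2018 bases from its 5′ end, with 708 exon bases (26.6%) shared. Notum stood at 6.55, 9.09 and 12.2 TPM at 96h, 2.28, 2.55 and 2.84 in Gastruloid, 2.61, 1.79 and 2.76 in TLSMG, 61.9, 73.6 and 65.6 in TLSMGC and 57.1, 57.5 and 43.4 in TLSMGCL. Notumos stood at 0.406, 0.296 and 0.543 TPM at 96h, 0.0329, 0.0257 and 0.0484 in Gastruloid, 0.134, 0.263 and 0.0735 in TLSMG, 5.77, 4.21 and 4.94 in TLSMGC and 3.59, 3.11 and 2.84 in TLSMGCL. Every library with CHIR99021 at 120 h lay above every other library in both genes. In Notum, TLSMGC exceeded TLSMG by 4.34 ± 0.18 (adjusted p = 1.62e-09) and TLSMGCL by 3.99 ± 0.18 (adjusted p = 3.23e-09). In Notumos the differences were 2.36 and 1.85 (log2), given with no test because the lncRNA was selected through these groups. The difference of the ratio between TLSMGC and TLSMG was -1.97 with a pseudocount of 1 and -0.41 with a pseudocount of 0.1. In plain TPM the lncRNA was 7.49% ± 6.35 (SD, n = 3) of Notum in TLSMG and 7.53% ± 1.81 (SD, n = 3) in TLSMGC, a difference smaller than the spread between TLSMG libraries. The pair counts among the ratio calls of 4 comparisons with a pseudocount of 1 and of none with 0.1, and its ratio difference between Gastruloid and 96h changed sign, from 1.05 to -0.12. Both pseudocounts exceed the lncRNA's levels in Gastruloid, 0.0257 to 0.0484 TPM, so neither ratio measures its change there. The percentages above cover only TLSMG and TLSMGC.

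Map2k3os (chr11:60920917-60931867) starts 166 bases from Map2k3, a kinase that activates p38, with no shared exon bases. It read 1.86, 1.105 and 0.715 TPM at 96h, 1.23, 1.11 and 0.524 in Gastruloid, 1.27, 1.64 and 1.95 in TLSMG, 3.39, 3.33 and 2.97 in TLSMGC and 3.001, 2.704 and 3.33 in TLSMGCL. Map2k3 read 18.95, 19.6 and 19.1 TPM at 96h, 22.8, 22.96 and 22.5 in Gastruloid, 21.1, 25.4 and 27.7 in TLSMG, 21.8, 20.97 and 23.7 in TLSMGC and 23.4, 21.7 and 27.7 in TLSMGCL. All 6 libraries with CHIR99021 at 120 h lay above the 9 others in the lncRNA, and in the partner they overlapped TLSMG. Map2k3os rose from TLSMG to TLSMGC by 0.70 ± 0.19 (adjusted p = 0.00893) and the ratio by 0.84 ± 0.19 (adjusted p = 0.00651), while Map2k3 was not called. With a pseudocount of 0.1 that ratio difference was 1.12 (adjusted p = 0.0241). The ratio rise of 0.64 from TLSMG to TLSMGCL (adjusted p = 0.0244) lost its call with a pseudocount of 0.1 (adjusted p = 0.0572). The lncRNA was 6.52% ± 0.514 (SD, n = 3) of its partner in TLSMG, 14.6% ± 1.81 (SD, n = 3) in TLSMGC and 12.4% ± 0.396 (SD, n = 3) in TLSMGCL. Against TLSMG, TLSMGCL was higher by 0.62 ± 0.19 (adjusted p = 0.0153), lost without TLSMG replicate 1 (adjusted p = 0.0598) or TLSMGCL replicate 3 (0.0503).

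Has2 makes hyaluronan, a long sugar chain of the embryonic matrix, and Has2os (chr15:56689944-56778399) starts 4595 bases inside it, with 11.2% of exon bases shared. Has2 read 20.5, 20.7 and 19.2 TPM at 96h, 14.7, 17.9 and 18.1 in Gastruloid, 27.5, 21.5 and 23.9 in TLSMG, 16.7, 15.7 and 12.6 in TLSMGC and 10.9, 9.94 and 10.97 in TLSMGCL. Has2os read 1.89, 1.47 and 1.68 TPM at 96h, 1.399, 2.14 and 1.36 in Gastruloid, 2.35, 2.12 and 1.55 in TLSMG, 2.71, 2.08 and 1.21 in TLSMGC and 1.68, 1.76 and 2.01 in TLSMGCL. The partner was highest in TLSMG and lowest in TLSMGCL, with no overlap between them or with TLSMGC, and the lncRNA's groups all overlapped. From TLSMG, Has2 fell by 0.66 ± 0.12 to TLSMGC (adjusted p = 0.000511) and by 1.12 ± 0.12 to TLSMGCL (adjusted p = 4.87e-06). Has2os was not called (adjusted p = 0.791 over the 5 groups). The ratio rose by 1.03 ± 0.16 (adjusted p = 0.000535) from TLSMG to TLSMGCL, and with a pseudocount of 0.1 by 1.06 (adjusted p = 0.00599). Its rise of 0.63 from TLSMG to TLSMGC (adjusted p = 0.0133) lost its call with a pseudocount of 0.1 (adjusted p = 0.073). The lncRNA was 8.305% ± 1.72 (SD, n = 3) of Has2 in TLSMG and 17.1% ± 1.51 (SD, n = 3) in TLSMGCL. Igf2, a fetal growth factor, was not called and ranged from 86.9 to 265 TPM at 96h and from 193 to 844 TPM in TLSMGCL. Igf2os, which starts inside it, was at 12.8 to 16.5 TPM at 96h and 19.6 to 20.4 TPM in TLSMG, higher in the latter by 0.44 ± 0.12 (adjusted p = 0.00786). That rise was not called with median-of-ratios scaling. Stam, an endosomal sorting protein, starts 164 bases from Stamos (chr2:14070332-14073934). Stam read 20.4, 24.1 and 36.4 TPM at 96h, 11.7, 12.8 and 12.9 in Gastruloid, 21.2, 19.6 and 24.02 in TLSMG, 19.6, 23.6 and 17.5 in TLSMGC and 21.2, 17.5 and 17.9 in TLSMGCL, lowest in all 3 Gastruloid libraries. Stamos read 1.39, 0.952 and 0.793 TPM at 96h, 1.59, 1.15 and 0.652 in Gastruloid, 0.963, 1.57 and 1.75 in TLSMG, 1.62, 1.26 and 1.68 in TLSMGC and 2.43, 1.57 and 2.06 in TLSMGCL, with no call, although the 3 TLSMGCL libraries lay above the 3 at 96h. Stam fell by 1.02 ± 0.17 from 96h to Gastruloid (adjusted p = 0.000331), and the ratio rose by 1.06 ± 0.29 (adjusted p = 0.0113), a call lost without 96h replicate 3 (adjusted p = 0.0518) or Gastruloid replicate 1 (0.0515). With a pseudocount of 0.1 the ratio rose by 1.13 (adjusted p = 0.0487). In plain TPM, Stamos was 4.31% ± 2.33 (SD, n = 3) of Stam at 96h and 9.21% ± 4.28 (SD, n = 3) in Gastruloid, with ranges that overlapped.

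Epb41l4a encodes a protein of the band 4.1 family, which links membrane proteins to actin. Epb41l4aos lies on chromosome 18 beyond its 3′ end, with the 5′ ends 212314 bases apart and no shared exon. The lncRNA read 47.97, 48.5 and 51.4 TPM at 96h, 44.03, 51.9 and 48.8 in Gastruloid, 44.02, 48.01 and 48.4 in TLSMG, 85.1, 86.1 and 87.7 in TLSMGC and 72.9, 77.7 and 75.5 in TLSMGCL. Epb41l4a read 12.8, 14.4 and 12.96 TPM at 96h, 13.2, 11.5 and 11.5 in Gastruloid, 7.71, 11.4 and 9.501 in TLSMG, 44.7, 33.9 and 34.8 in TLSMGC and 28.8, 23.5 and 29.2 in TLSMGCL. Both were higher in all 6 libraries with CHIR99021 at 120 h than in any of the other 9. TLSMGC exceeded TLSMG by 0.87 ± 0.06 (adjusted p = 3.7e-07) in the lncRNA and by 1.89 ± 0.14 (adjusted p = 2.84e-07) in the partner, and TLSMGCL by 0.68 ± 0.06 (adjusted p = 2.69e-06) and 1.43 ± 0.14 (adjusted p = 2.66e-06). The partner rose more. The ratio fell by 1.02 ± 0.16 from TLSMG to TLSMGC (adjusted p = 0.000519), with a pseudocount of 0.1 by 1.10 (adjusted p = 0.000529), and the lncRNA went from 501% ± 74.5 (SD, n = 3) of its partner in TLSMG to 232% ± 36.3 (SD, n = 3) in TLSMGC.

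Kcnmb4 is an accessory subunit of a calcium-activated potassium channel, and Kcnmb4os2 (chr10:116473163-116475319) starts 715 bases inside it, with 34.2% of exon bases shared. Kcnmb4 read 13.1, 11.2 and 10.99 TPM at 96h, 11.6, 13.1 and 15.1 in Gastruloid, 12.9, 13.3 and 12.3 in TLSMG, 6.73, 6.55 and 6.05 in TLSMGC and 6.96, 6.43 and 7.704 in TLSMGCL. Kcnmb4os2 read 1.48, 0.675 and 1.69 TPM at 96h, 1.74, 2.17 and 2.47 in Gastruloid, 2.44, 2.08 and 2.197 in TLSMG, 1.35, 1.69 and 1.26 in TLSMGC and 1.77, 1.59 and 2.305 in TLSMGCL. The partner's 6 libraries with CHIR99021 at 120 h lay below the 9 others, and the lncRNA's 3 libraries in TLSMGC also lay below the 3 in TLSMG, while those in TLSMGCL overlapped them. Kcnmb4 fell by 0.90 ± 0.10 from TLSMG to TLSMGC (adjusted p = 1.66e-05), and the lncRNA was not called there. The ratio rose by 0.62 ± 0.17 (adjusted p = 0.0157) from TLSMG to TLSMGCL, which was lost with a pseudocount of 0.1 (adjusted p = 0.12) and without TLSMG replicate 2 (0.0616) or TLSMGCL replicate 3 (0.0525). The lncRNA was 17.5% ± 1.72 (SD, n = 3) of Kcnmb4 in TLSMG and 26.7% ± 2.79 (SD, n = 3) in TLSMGCL. Lpp, a LIM protein of focal adhesions whose start lies 81 bases from that of Lppos, fell by 1.00 ± 0.16 from TLSMG to TLSMGC (adjusted p = 0.000248), from 13.9 to 14.8 TPM down to 4.94 to 7.62 TPM. Lppos was at 0.934 to 1.67 TPM in TLSMG and 0.951 to 1.36 TPM in TLSMGC and was not called. The ratio rose by 0.84 (adjusted p = 0.0179), a call lost with a pseudocount of 0.1 (adjusted p = 0.0878). In TLSMGCL, Lppos fell by 0.47 ± 0.16 from TLSMG (adjusted p = 0.0278), a call lost without any 1 of 4 libraries and with median-of-ratios scaling (adjusted p = 0.0777). An endothelium list of 8 genes was highest in TLSMG too, with a sum of 260 to 315 TPM against 24.2 to 78.9 in TLSMGC, 11.9 to 19.7 in TLSMGCL, 33.7 to 44.2 in Gastruloid and 8.84 to 12.0 at 96h. All 8 of its genes reached 1 TPM in Gastruloid, TLSMG and TLSMGC, 7 in TLSMGCL and 3 at 96h, and its part in the values of Has2 and Lpp was not tested.

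Appbp2 binds the amyloid precursor protein, and Appbp2os (chr11:85234775-85238304) starts 355 bases inside it by GENCODE, with 34.5% of exon bases shared. Its RefSeq window (chr11:85234916-85235215, plus strand) begins past that start, so the annotations differ on where the lncRNA begins. Appbp2 read 54.1, 53.9 and 53.2 TPM at 96h, 42.7, 44.2 and 44.2 in Gastruloid, 63.6, 63.5 and 66.7 in TLSMG, 48.8, 49.2 and 44.7 in TLSMGC and 49.3, 38.5 and 47.1 in TLSMGCL. Appbp2os read 4.98, 6.62 and 3.95 TPM at 96h, 2.69, 4.19 and 2.59 in Gastruloid, 3.401, 2.77 and 2.14 in TLSMG, 3.23, 2.28 and 1.87 in TLSMGC and 2.85, 1.85 and 1.59 in TLSMGCL. The lncRNA was highest at 96h, and the partner in TLSMG, above all other libraries. From 96h to TLSMG the lncRNA fell by 0.70 ± 0.22 (adjusted p = 0.0167) and the partner rose by 0.26 ± 0.08 (adjusted p = 0.0146). The fall did not pass when 96h replicate 2 (adjusted p = 0.0794) or TLSMG replicate 3 (0.0724) was left out, and the partner's rise did not pass without TLSMG replicate 3 (0.0519) or with median-of-ratios scaling (0.09, adjusted p = 0.221). The ratio fell by 0.96 ± 0.21 (adjusted p = 0.00353), with a pseudocount of 0.1 by 1.14 (adjusted p = 0.00683), and kept its call without any 1 library. As a percentage of Appbp2, the lncRNA was 9.63% ± 2.46 (SD, n = 3) at 96h and 4.31% ± 1.07 (SD, n = 3) in TLSMG.

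Sp3, a factor that binds GC boxes, and Sp3os (chr2:72979424-72988677) start 1022 bases apart and share 12.2% of the lncRNA's exon bases. Sp3os rose from 9.19 to 10.5 TPM at 96h to 14.3 to 19.5 TPM in Gastruloid, by 0.73 ± 0.14 (adjusted p = 0.000865), and Sp3, at 39.5 to 40.6 and 37.6 to 41.6 TPM, was not called. In TLSMG it was Sp3 that was higher, at 52.4 to 56.5 TPM, by 0.48 ± 0.13 (adjusted p = 0.00943) over Gastruloid. The ratio rose by 0.77 ± 0.18 (adjusted p = 0.00508) from 96h to Gastruloid and fell by 0.82 ± 0.18 from there to TLSMG (adjusted p = 0.00809), and both held with a pseudocount of 0.1 (adjusted p = 0.00541 and 0.00982) and without any 1 library. Sp3os was 24.4% ± 1.38 (SD, n = 3) of Sp3 at 96h, 43.7% ± 7.25 (SD, n = 3) in Gastruloid and 23.9% ± 1.59 (SD, n = 3) in TLSMG. Zbtb11, a zinc finger factor, was higher in TLSMG too. It rose from 4.94 to 5.67 TPM in Gastruloid to 8.23 to 9.14 TPM in TLSMG (0.60 ± 0.10, adjusted p = 0.000608). Zbtb11os1 was at 4.93 to 5.93 and 4.17 to 6.08 TPM and was not called. Its ratio fell by 0.70 ± 0.17 (adjusted p = 0.0112), which also held without any 1 library and with a pseudocount of 0.1 (adjusted p = 0.0178). The lncRNA was 102% ± 16.5 (SD, n = 3) of Zbtb11 in Gastruloid and 58.3% ± 10.2 (SD, n = 3) in TLSMG. Phf2, a histone demethylase, and Phf2os1 (chr13:48871112-48875460) start 7 bases apart. Phf2 read 20.8, 19.99 and 18.2 TPM at 96h, 23.1, 20.7 and 23.8 in Gastruloid, 27.1, 29.9 and 29.3 in TLSMG, 22.1, 21.6 and 18.9 in TLSMGC and 23.04, 15.99 and 21.7 in TLSMGCL. Phf2os1 read 1.36, 1.25 and 0.947 TPM at 96h, 2.12, 1.19 and 1.95 in Gastruloid, 1.77, 1.31 and 1.62 in TLSMG, 0.617, 0.704 and 0.608 in TLSMGC and 0.503, 0.836 and 0 in TLSMGCL. Both were lower in the 6 libraries with CHIR99021 at 120 h than in TLSMG, and 1 TLSMGCL library listed the lncRNA at 0. In TLSMGCL, Phf2os1 fell by 0.87 ± 0.20 (adjusted p = 0.00306) and Phf2 by 0.50 ± 0.12 (adjusted p = 0.00349). In TLSMGC, the lncRNA's fall of 0.64 ± 0.20 (adjusted p = 0.0194) was lost with a pseudocount of 0.1 (adjusted p = 0.136), and also without TLSMG replicate 1 (0.0601), TLSMG replicate 3 (0.0538) or TLSMGC replicate 3 (0.0529). Zfp335os rose from 2.37 to 3.13 TPM at 96h to 3.73 to 6.10 TPM in Gastruloid, by 0.68 ± 0.15 (adjusted p = 0.00247), where Zfp335, a regulator of neural progenitors, was not called. The ratio rose by 0.64 (adjusted p = 0.00924), and with a pseudocount of 0.1 by 0.80 (adjusted p = 0.00871). Ino80dos and Ino80d, a part of the INO80 remodelling complex, were not called in any comparison.

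**Figure D4:**
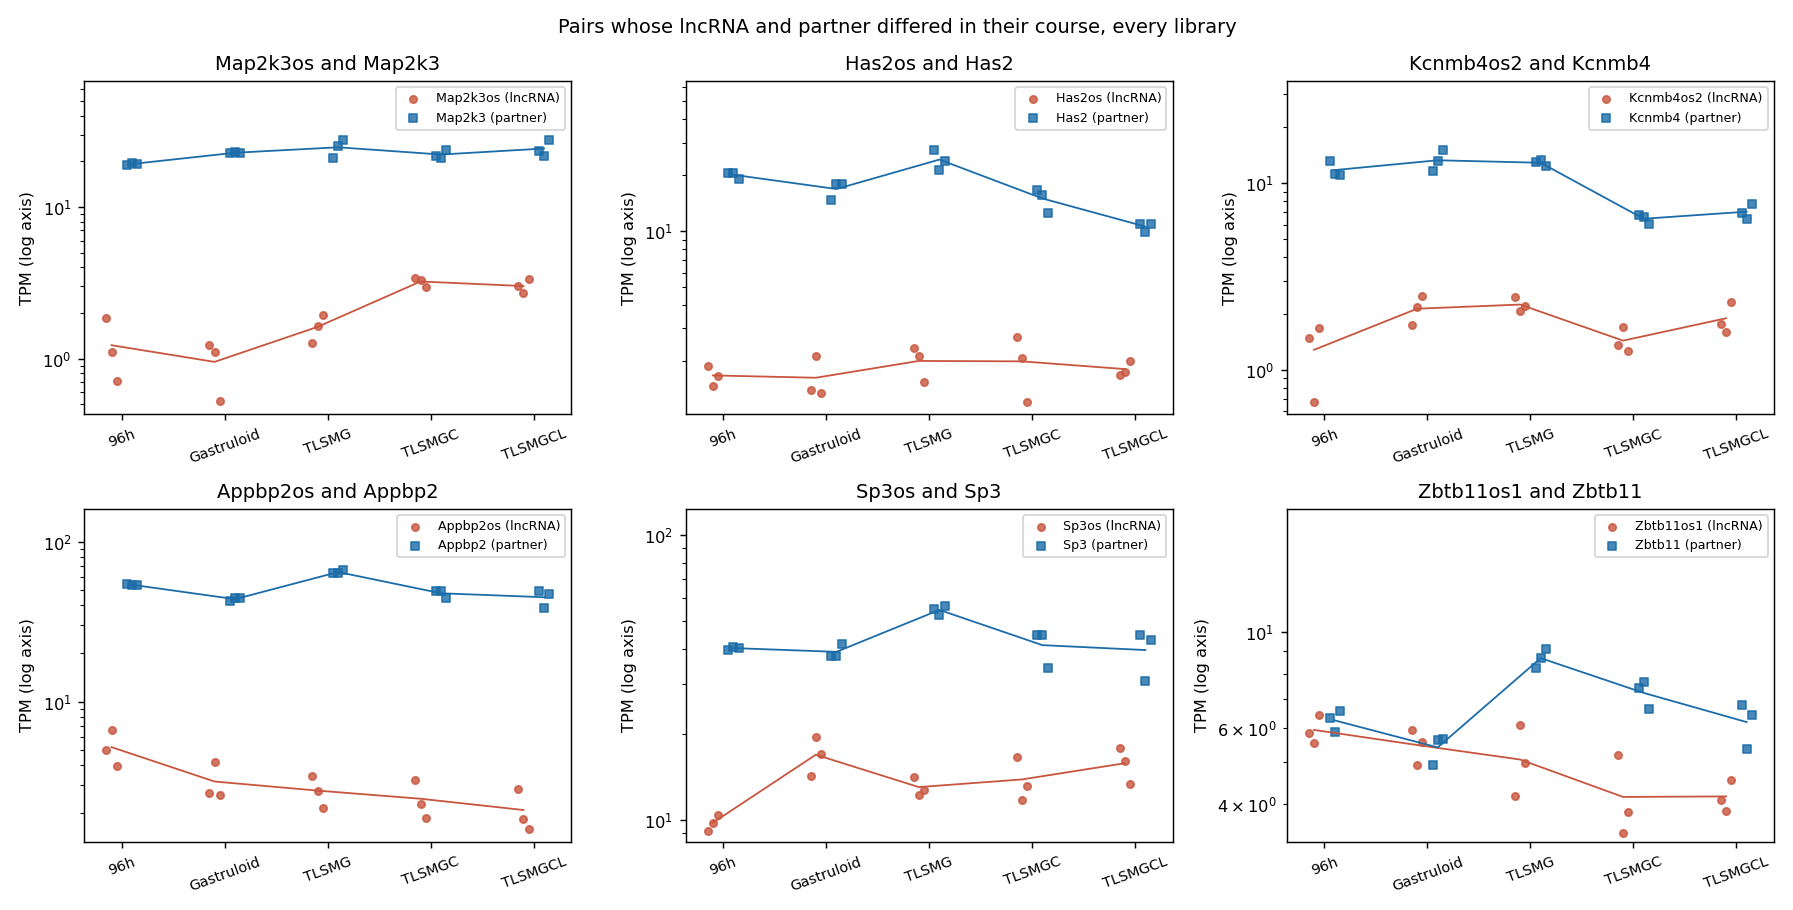
TPM (log axis) of 6 lncRNAs (circles) and their partners (squares) in each of the 15 libraries by group; lines join group means. Map2k3os is highest in the 6 libraries with CHIR99021 at 120 h, and Appbp2, Sp3 and Zbtb11 have their highest mean in TLSMG while their lncRNAs do not.

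Brip1os and Brip1, which encodes a DNA helicase that works with BRCA1, point away from each other 177 bases apart and moved together. Brip1os was at 28.2 to 29.7 TPM at 96h, 28.2 to 30.3 TPM in Gastruloid and 34.4 to 38.4 TPM in TLSMG. It was at 26.5 to 27.4 TPM in TLSMGC and 26.9 to 30.6 TPM in TLSMGCL. Brip1 was at 6.11 to 7.15, 5.70 to 6.11, 8.51 to 9.25, 5.84 to 6.88 and 4.36 to 6.40 TPM in that order, so TLSMG was highest in both, with no overlap with any other group. From TLSMG to TLSMGC, Brip1os fell by 0.42 ± 0.06 (adjusted p = 0.000183) and Brip1 by 0.43 ± 0.12 (adjusted p = 0.0105). The ratio gave an adjusted p of 0.229 over the 5 groups, with a span of 0.24, and a p that misses the threshold does not show that the genes act alike. Because Brip1os shares exon bases with Ints2 and Med13 on the other strand, their reads cannot be told apart from its own with certainty. Etaa1, an activator of the ATR checkpoint, rose from 12.3 to 14.8 TPM in Gastruloid to 23.9 to 25.3 TPM in TLSMG (0.81 ± 0.12, adjusted p = 0.00043). Etaa1os, 95 bases away, was at 2.72 to 3.34 and 2.10 to 4.37 TPM and was not called there. The ratio of this pair was not called in any comparison. From TLSMG to TLSMGC both fell, Etaa1os by 0.78 ± 0.24 (adjusted p = 0.0185) and Etaa1 by 0.33 ± 0.12 (adjusted p = 0.0469). The first call was lost without any 1 of 3 libraries and the other without any 1 of 10. The Etaa1 call was also lost with median-of-ratios scaling (-0.18, adjusted p = 0.197) and FPKM (0.108). A replicate block (0.0687) and a minimum of 0.1 TPM (0.0563) lost it too.

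Cep83, a centriole protein needed for cilia, rose from 12.2 to 17.0 TPM in Gastruloid to 22.0 to 26.8 TPM in TLSMG (0.69 ± 0.15, adjusted p = 0.00289), and Cep83os, 78 bases away, was at 1.47 to 1.74 and 1.77 to 2.17 TPM and was not called. Its TLSMG libraries also lay above those of Gastruloid. The ratio fell by 0.47 (adjusted p = 0.027), a call lost with a pseudocount of 0.1 (adjusted p = 0.113). Fam120a, an RNA-binding protein, rose by 0.50 ± 0.09 (adjusted p = 0.000872) in the same comparison, from 42.0 to 45.7 up to 58.8 to 64.3 TPM, and Fam120aos was not called. The ratio of this pair fell by 0.56 (adjusted p = 0.0168), which was lost with a pseudocount of 0.1 (adjusted p = 0.0847). From TLSMG to TLSMGCL both fell, Fam120aos by 0.55 ± 0.16 (adjusted p = 0.0159, lost without TLSMG replicate 2 or TLSMGCL replicate 2) and Fam120a by 0.50 ± 0.09 (adjusted p = 0.000524). Rab10, a small GTPase of membrane traffic, rose by 0.42 ± 0.07 (adjusted p = 0.000908) from Gastruloid to TLSMG. It fell by 0.31 ± 0.07 from TLSMG to TLSMGC (adjusted p = 0.00447), not called with median-of-ratios scaling, and Rab10os was not called in either comparison. For Tmem147os the 2 IDs share 177 exon bases on the same strand, and the ID that starts farther from Tmem147 shares 279 with Sbsn (mean 0.534 TPM) on that strand too, so reads could be split between them. The ID that starts 39 bases from Tmem147 rose from 5.96 to 6.40 TPM at 96h to 10.8 to 12.1 TPM in Gastruloid (0.80 ± 0.10, adjusted p = 2.07e-05). The other rose from 6.27 to 8.87 up to 11.7 to 12.9 TPM (0.70 ± 0.17, adjusted p = 0.00556). Tmem147, a protein of the endoplasmic reticulum, was not called. The ratio of the nearer ID rose by 0.64 (adjusted p = 0.0126), and with a pseudocount of 0.1 by 0.72 (adjusted p = 0.0091). With a pseudocount of 5 that call was lost (adjusted p = 0.051). The ratio of the other ID was not called.

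Hk1os, inside the gene of the glycolytic enzyme hexokinase 1, was lower in TLSMG than in Gastruloid, at 0.703 to 0.943 against 1.70 to 2.10 TPM, a fall by 0.67 ± 0.20 (adjusted p = 0.0167). That call was lost without Gastruloid replicate 3 (adjusted p = 0.0527) or TLSMG replicate 3 (0.0534), and Hk1 was not called there. The ratio of Hk1os to Hk1 was not called in any comparison. Atad3a, a mitochondrial membrane protein, rose by 0.31 ± 0.08 (adjusted p = 0.00476) with CHIR99021 and Atad3aos was not called. Fbxl12, a substrate receptor of ubiquitin ligases, fell by 0.36 ± 0.08 from TLSMG to TLSMGC (adjusted p = 0.00337), not called with median-of-ratios scaling, while Fbxl12os, at 0.358 to 1.89 TPM in all libraries, was called only in TLSMG against 96h (0.61 ± 0.20, adjusted p = 0.0231, lost without any 1 of 4 libraries). Gad1os (chr2:70489940-70563357) lies against Gad1, the enzyme that makes the transmitter GABA. Gad1os read 1.502, 2.004 and 2.16 TPM at 96h, 0.788, 0.891 and 0.789 in Gastruloid, 0.785, 0 and 0.966 in TLSMG, 1.06, 0.873 and 1.25 in TLSMGC and 1.001, 0.928 and 0.745 in TLSMGCL. Its 96h libraries lay above all others, with a difference of -0.92 (log2) from 96h to TLSMG, given with no test. Gad1 was listed at 0 in all 3 TLSMG libraries and in 2 of 3 Gastruloid libraries, and at 0.337 to 0.571 TPM at 96h, 0.178 to 0.801 in TLSMGC and 0.143 to 0.286 in TLSMGCL, too low for a test. Rab26os, which holds the small nucleolar RNA Snord60 within its exons, was at 16.2 to 25.1 TPM in all 15 libraries while Rab26, a GTPase of secretory vesicles, ran from 0.0374 to 1.33 TPM. Its fall from 96h to Gastruloid, 0.44 ± 0.14 (adjusted p = 0.0187), was lost without 96h replicate 2 or 3 or Gastruloid replicate 2. Erich2os and Ccdc142os, at 0.853 to 3.45 and 0.479 to 2.07 TPM, were not called, and their partners lay under the level for a test.

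Taking the groups in order of level, lncRNA and partner had their highest group mean in the same group in 9 of 28 pairs (32.1%, against 31.2% of 2602 opposite-strand pairs) and their lowest in the same group in 8 (28.6%, against 29.1%). The highest group mean was in TLSMG for 16 of 31 partners and 7 of 32 lncRNAs, beside 39.3% of all 14290 genes tested. With median-of-ratios scaling it was there for 12 partners and 2 lncRNAs, beside 21.5% of all genes, and none of these counts was tested. Of the pairs whose ratio differed between groups, 7 had a span of group means of at least 1. Lhx1os had 2.59 (2.71 with a pseudocount of 0.1), Map2k3os 1.17 (1.77), Has2os 1.03 (1.06), Kcnmb4os2 1.03 (1.33) and Epb41l4aos 1.02 (1.10). Stamos, with 1.06 (1.38), was not called over the 5 groups with a pseudocount of 0.1 (adjusted p = 0.0723). Notumos, with 2.14, had 0.971 and no call with a pseudocount of 0.1, the 22nd widest span of 32, so its place rests on the pseudocount.

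**Figure D5:**
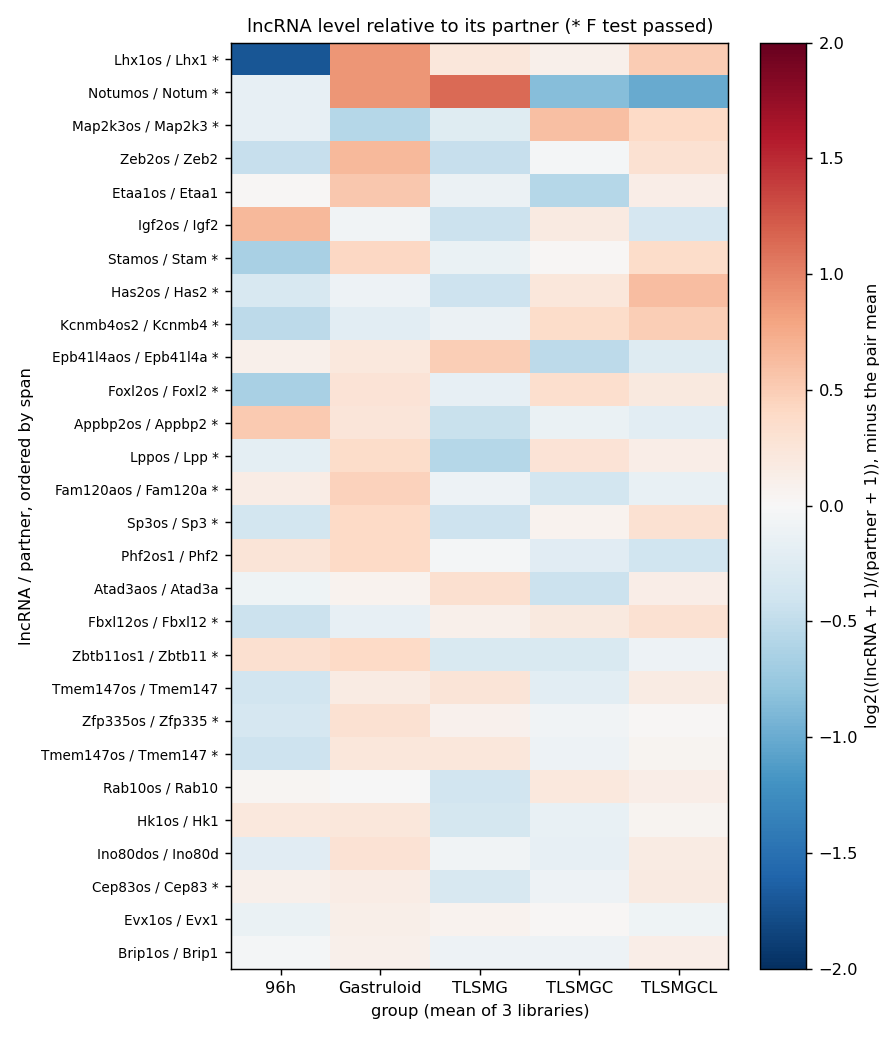
Group means of log2((lncRNA + 1)/(partner + 1)), centred on the mean of the 5 groups, for the 28 pairs with both genes tested (rows, ordered by span); red is lncRNA high relative to its partner, blue low, and a star marks an adjusted p under 0.05 over the 5 groups. Lhx1os is lowest at 96h, and the rows of Evx1os and Brip1os at the bottom are nearly even.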

How the data were processed

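Bulk RNA sequencing of 15 libraries was deposited as 1 gene table per library. The submitters' processing notes name cutadapt 2.4, STAR 2.7.3a, StringTie 2.0 and mm10. The annotation and the strand setting of the counting are not given in the sources used here. Per the file headers, the authors' StringTie tables hold coverage, FPKM and TPM for each gene; TPM was the main value, FPKM an alternative, and coverage per FPKM a measure of relative depth. Rows that repeat a gene ID, 7 to 13 per table, were summed. Biotypes, strands and exons came from GENCODE M21, which holds 54409 of the 54446 IDs. Groups came from the sample labels.

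Genes with a mean of at least 1 TPM were tested with limma 3.58.1 (R 4.3.3) on log2(TPM + 1), with a mean trend and all 15 libraries in 1 fit, for 6 comparisons and an F test over 5 groups. Pair ratios were tested likewise over 2606 opposite-strand pairs. Of these, 2599 reach 1 TPM in both genes and overlap or have 5′ ends within 5000 bases, and 7 member pairs were added: 3 that lie farther apart (Epb41l4aos, Fbxl12os and 1 Tmem147os ID) and 4 with a partner under 1 TPM. Adjusted p-values (Benjamini-Hochberg) cover all genes or all pairs, and 0.05 was the threshold. The scripts were tested on simulated data. Where replicates are not separate cultures, p-values measure only the spread between these libraries.

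Pairs given in full were those of the 8 lncRNAs with the widest span of group means, and those whose ratio passed the F test with a span of at least 1. The other members are given because all were to be accounted for. The members and lists were chosen with earlier results of these data known. Alternatives were other pseudocounts, minimum levels, FPKM, median-of-ratios scaling, a replicate block, no trend, fits of only 2 groups, and leaving out each library.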

Additional observations from a re-analysis of the deposited data

How the results depend on the processing

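Selecting on a mean of 2 TPM left 16 lncRNAs. Testing only genes with a mean of at least 5 TPM left 10 of the 32 lncRNAs. Of these, 6 were called in Gastruloid against 96h, 7 in TLSMG against 96h, 4 in TLSMGC against TLSMG and 0 in TLSMGCL against TLSMGC. In TLSMGCL against TLSMG 3 were called, and over the 5 groups 8. Fewer members were tested, so these counts are not comparable with those out of 32. Ratio calls were then 3, 2, 2, 1 and 2 in the 5 comparisons that had any and 3 over the 5 groups, with fewer genes tested. With a pseudocount of 0.1, ratio calls were 5 in Gastruloid against 96h, 4 in TLSMG against Gastruloid, 3 in TLSMGC against TLSMG and 4 in TLSMGCL against TLSMG, and the Notumos ratio in Gastruloid against 96h turned to -0.12. With a pseudocount of 5, TLSMG against 96h had 10 ratio calls. In TLSMGCL against TLSMGC, lncRNA calls were 0 with a pseudocount of 0.1, a minimum of 0.1 TPM or median-of-ratios scaling, 2 with FPKM and 3 with a pseudocount of 5, and partner calls were 2 with a pseudocount of 5 and 0 in a fit of only the 2 groups. The number of pairs moving together was 2 in Gastruloid against 96h, 4 in TLSMGC against TLSMG and 3 in TLSMGCL against TLSMG when a mean of 5 TPM was required, and 2 in TLSMGCL against TLSMGC with a pseudocount of 5. The minimum of 5 TPM leaves fewer genes to call, and the cause of the other shifts was not tested.

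Leaving out 1 library at a time gave 7 to 12 lncRNA calls in Gastruloid against 96h, 9 to 15 in TLSMG against 96h, 4 to 7 in TLSMG against Gastruloid, 7 to 11 in TLSMGC against TLSMG, 0 to 2 in TLSMGCL against TLSMGC, 6 to 10 in TLSMGCL against TLSMG and 19 to 23 over the 5 groups. Partner calls ranged from 7 to 9, 12 to 18, 13 to 15, 13 to 19, 1 to 2, 14 to 18 and 22 to 23, and ratio calls from 6 to 9, 5 to 9, 3 to 9, 4 to 8, 0 to 0, 5 to 8 and 13 to 20 in that order. The pairs moving together ranged from 3 to 5, 2 to 7, 2 to 3, 5 to 8, 0 to 2 and 5 to 8 in the 6 comparisons, and those counts were chosen after seeing the data. Of single calls, 21 of 53 for lncRNAs, 54 of 73 for partners and 12 of 36 for ratios held under every alternative run.

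With the replicate number as a block, lncRNA calls were 12, 14, 6, 10, 1, 10 and 20 in the order above, partner calls 8, 16, 15, 16, 1, 15 and 23, ratio calls 8, 8, 7, 7, 0, 8 and 18, and pairs moving together 5, 5, 3, 6, 0 and 8. Libraries with the same number did not deviate together (mean correlation -0.020 over 30 pairs of libraries, from -0.181 to 0.104), so the numbers were not taken to pair samples. Depth is known only as relative coverage, so no counting interval is given, and levels near 1 TPM limit what could be detected.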

Other observations

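Among the 298 IDs with an os name and a named partner, some are not annotated as lncRNA and were left out of the members. Wdr83os had a mean of 72.0 TPM, Slc7a6os 50.8 TPM, Cebpzos 40.2 TPM and Abhd11os 17.3 TPM over the 15 libraries. All but 1 of the 32 lncRNAs were lower than Slc7a6os, the exception being Epb41l4aos at 61.2 TPM. These values were not tested.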
